A study of Mus musculus with 16 samples.

Results

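The genes described here are the nuclear genes for subunits of the mitochondrial respiratory chain (complexes I to IV) and of ATP synthase (complex V), measured in mouse dermal fibroblasts, the matrix-forming cells of the skin. They were chosen by symbol: Ndufa, Ndufb, Ndufc, Ndufs and Ndufv genes with a number, Sdha to Sdhd, genes starting with Uqcr, the Cox4 to Cox8 subunit genes, and genes starting with Atp5. The rule found 77 of the 17097 genes with 1 symbol in the platform's annotation, on 132 probe sets, and each gene was read from its probe set with the highest mean. There were 31 genes of complex I, 4 of complex II, 7 of complex III, 18 of complex IV and 17 of complex V. Ndufa4 carries a complex I symbol but is placed with complex IV, to which it is now counted. A filter on low values left 76 of the 77 for testing. The exception was Cox7b2, the testis form of subunit 7B.

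Female C57Bl/6 mice aged 2 months (young) or 18 months (old), 4 of each age, gave the cells. Fibroblasts of each mouse were profiled straight after isolation, which the labels call in vivo, and again after culture, so 4 groups of 4 arrays were compared, young and old in vivo and young and old cultured. Each sample was 5000 cells, whose cDNA was amplified over 23 cycles before hybridisation to an Affymetrix mouse array. How long the cells were cultured, in which medium and over how many passages is not given in the sources used here, and neither is the way fibroblasts were separated from other skin cells. Values are deposited log2 intensities, and a log2 change of 1 is a doubling.

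Complex I passes electrons from NADH to ubiquinone, and complex II passes electrons from succinate to ubiquinone. Complex III hands them on to cytochrome c, and complex IV (cytochrome c oxidase) hands them to oxygen. Complexes I, III and IV pump protons across the inner mitochondrial membrane, and ATP synthase makes ATP as protons flow back. The genes below are encoded in the nucleus. The subunits encoded by mitochondrial DNA are not analysed here.

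Most of these genes were higher in cultured than in in vivo fibroblasts. Averaged over both ages, 67 of 76 rose (88.2%), 4 fell and 5 did not pass the threshold (limma, adjusted p of 0.05 over 14819 genes tested), while 34.8% of all genes tested rose and 44.7% fell. The median log2 change was 0.63 over the 76 genes and -0.11 over all genes tested. In 57 genes every cultured array lay above every in vivo array, which held for 23.9% of all genes tested. In 3 genes every cultured array lay below, which held for 21.2%. The median of the 76 genes on an array was 8.86 to 9.49 in vivo and 9.93 to 9.99 in culture, with no overlap.

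The median of the group stayed above 0 under both other scalings tried (0.43 and 0.37), but the sizes and some single calls moved. With each array scaled to its 75th percentile, which moved the median change of all genes tested to -0.31, 58 of the 76 rose and 9 fell. With cyclic loess, a smoothing that evens out arrays over the whole range of intensity, 53 rose and 11 fell, with a median change of -0.05 over all genes. Of the genes called higher, Ndufb11 and Sdha turned lower with cyclic loess.

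Other measures moved with culture too, and their part in the result was not tested. The 3′ minus 5′ difference of beta-actin probe sets, which reads RNA integrity and how far cDNA was extended, came to -0.41 ± 0.07 (log2, SD over 4 arrays) on young in vivo arrays, -0.46 ± 0.11 on old in vivo arrays, 0.07 ± 0.04 on young cultured arrays and 0.10 ± 0.07 on old cultured arrays. The same difference for Gapdh lay between -0.17 and -0.01 on all 16 arrays, and the conditions overlapped. Of 10 fibroblast markers, among them Col1a1, Pdgfra and Dpt, 9 were lower in culture, and their mean on an array was 10.57 to 10.74 in vivo and 9.10 to 9.44 in culture. Of 12 skeletal muscle markers, a tissue rich in these complexes, 7 were lower in culture. Their mean was 4.61 to 4.83 in vivo and 4.41 to 4.52 in culture, and Myh1, Myh2, Myh4 and Myl1 lay below the control level of 4.42 (the 95th percentile of 27 bacterial poly-A control probe sets) in all groups. Genes of other marker lists fell with culture too: 7 of 10 macrophage genes (Cd68 from means of 8.09 in young and 8.10 in old mice to 5.50 and 5.52), 6 of 8 endothelial, 6 of 7 melanocyte (Mitf from 8.01 and 8.20 to 5.31 and 5.43), 5 of 5 T cell, 5 of 9 keratinocyte, 4 of 5 brown adipocyte and 2 of 4 adipocyte genes. Of 5 pericyte and smooth muscle genes 2 fell, and Myh11, a smooth muscle myosin, rose from means of 4.49 and 4.46 to 9.25 and 8.41. Of all genes tested, 44.7% fell. Below the control level in all groups lay 5 macrophage, 4 endothelial, 3 melanocyte, 3 T cell, 2 keratinocyte, 2 brown adipocyte and 2 adipocyte genes. A change of such a gene is no reading of cell number. For the brighter genes in these bulk samples, fewer cells of a type and less RNA per cell cannot be told apart.

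**Figure D1:**
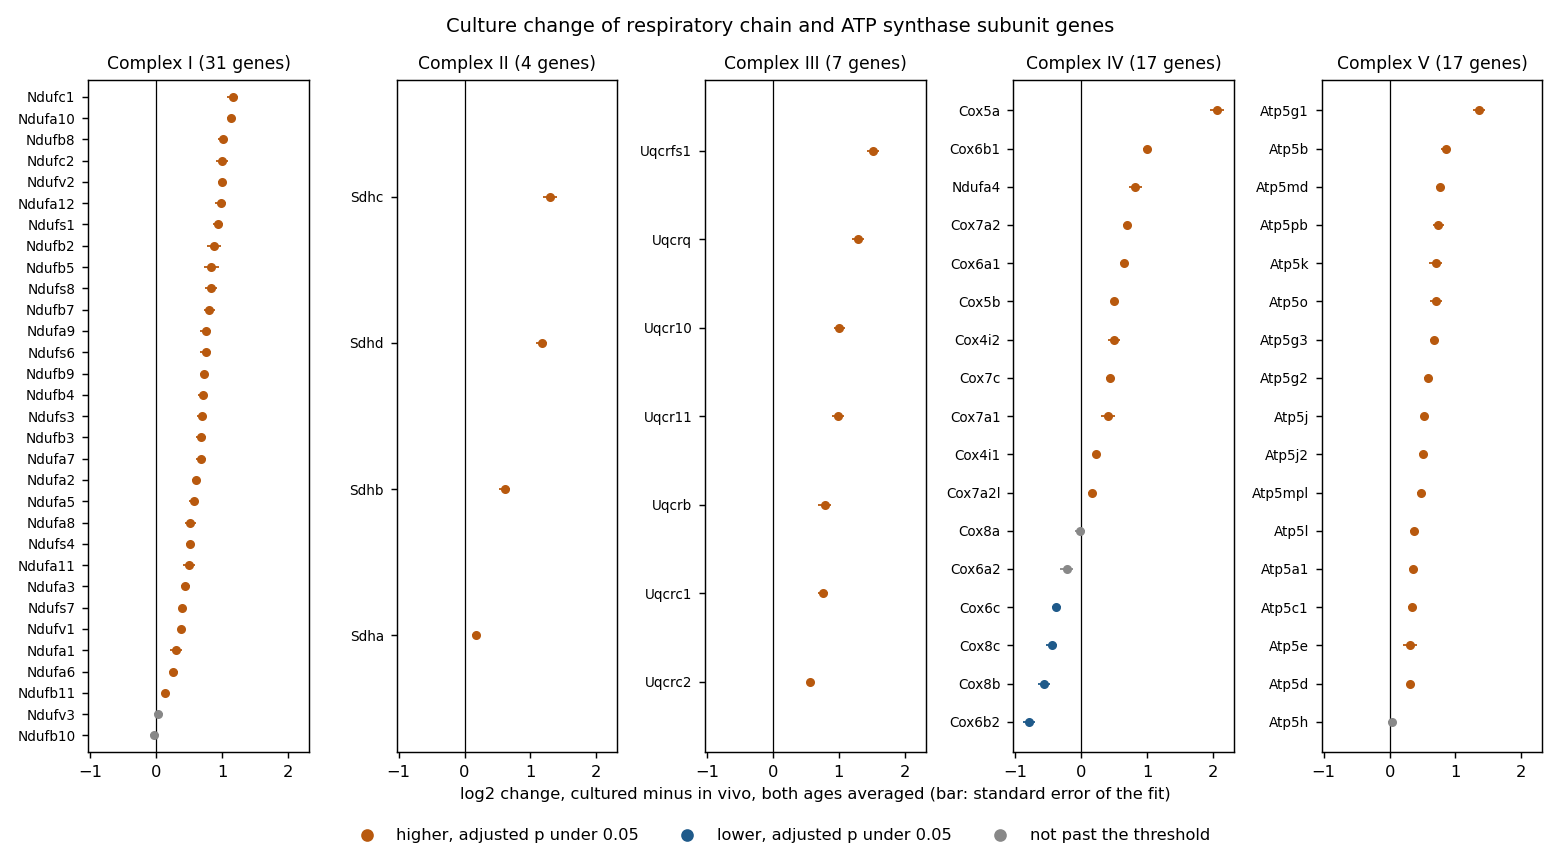
Log2 change with culture (cultured minus in vivo, both ages averaged) of each of the 76 subunit genes tested, by complex, with the standard error of the limma fit as a bar. Orange genes were higher and blue genes lower at an adjusted p of 0.05, and all 4 blue genes belong to complex IV.

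The 5 complexes differed in how far their genes moved. The median log2 change with culture was 0.69 for complex I, 0.89 for complex II, 0.99 for complex III, 0.41 for complex IV and 0.53 for complex V. All 4 genes of complex II and all 7 of complex III rose, as did 29 of 31 in complex I and 16 of 17 in complex V. In complex IV 11 of 17 rose and 4 fell. Its median took in 6 forms made mainly in certain tissues (median -0.34) beside 5 general forms (median 0.65). The order of the medians depended on scaling for complexes II and III, which stood at 0.70 and 0.68 with cyclic loess, while complex IV had the lowest median under each scaling (0.21 with the 75th percentile and 0.12 with cyclic loess). Genes of a complex are not replicates, so these medians carry no test.

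**Figure D2:**
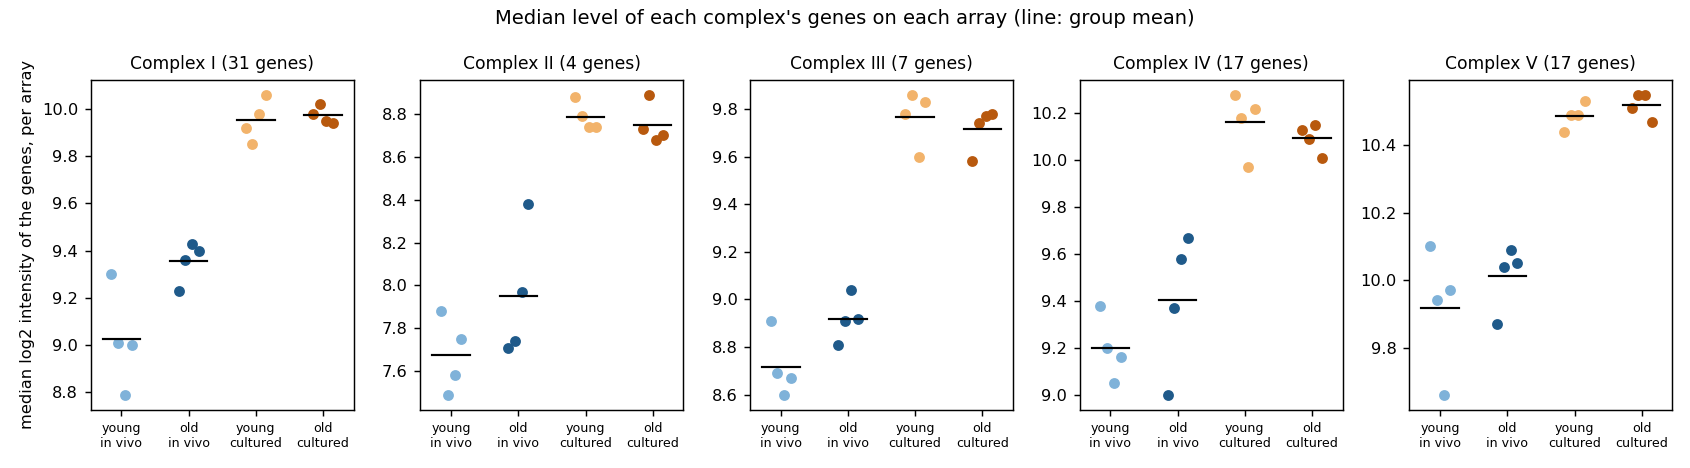
Median log2 intensity of each complex's tested genes on every array (dots) with the group mean (line), 4 arrays per group. Vertical scales differ between panels, and in each panel all 8 cultured arrays lie above all 8 in vivo arrays.

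Promoters of these genes are known for short motifs of the factors NRF1, GABPA (an ETS factor), YY1 and the estrogen-related receptors (ERR). Since the members moved together, the window from 250 bases before to 50 after each RefSeq start (assembly GRCm38.p6) was searched on both strands, and 63 of the 77 genes had a window. GCATGCGC, the core of the NRF1 motif, was in 15.9% of members with a window and in 5.03% of the 11761 tested genes with one. CCGGAAG (ETS) was in 23.8% against 16.5%, AAGATGGCG (YY1) in 11.1% against 2.89%, and TCAAGGTCA (ERR) in 3.17% against 0.366%. Among the 63 members these shares are 10 genes for NRF1, 15 for ETS, 7 for YY1 and only 2 for ERR. At least 1 of the 4 was in 42.9% of members and 22.8% of tested genes with a window. GGGCGG, the Sp1 core, was in 41.3% against 61.3%. None of these strings holds another. A match is a string of letters and not a measured binding site. Windows are printed for the gene of highest culture change (Cox5a), for 1 gene each of complexes III, II and I that rose and has a match, and for the gene that differed with age (Ndufa12). They run 5′ to 3′ on the gene's strand, with matches to the NRF1, ETS, YY1 or ERR strings in capitals.
Cox5a: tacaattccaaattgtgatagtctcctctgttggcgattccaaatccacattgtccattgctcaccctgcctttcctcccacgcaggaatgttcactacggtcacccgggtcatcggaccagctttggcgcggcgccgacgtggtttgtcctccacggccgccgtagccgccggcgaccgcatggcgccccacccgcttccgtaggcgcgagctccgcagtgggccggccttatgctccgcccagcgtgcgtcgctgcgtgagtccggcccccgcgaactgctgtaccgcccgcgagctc
Uqcr11: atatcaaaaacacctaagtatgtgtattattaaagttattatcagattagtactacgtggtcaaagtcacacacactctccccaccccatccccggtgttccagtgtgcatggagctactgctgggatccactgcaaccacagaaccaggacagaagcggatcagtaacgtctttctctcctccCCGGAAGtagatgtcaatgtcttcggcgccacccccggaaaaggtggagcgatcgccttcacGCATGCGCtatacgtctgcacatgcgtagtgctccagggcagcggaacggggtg
Sdhb: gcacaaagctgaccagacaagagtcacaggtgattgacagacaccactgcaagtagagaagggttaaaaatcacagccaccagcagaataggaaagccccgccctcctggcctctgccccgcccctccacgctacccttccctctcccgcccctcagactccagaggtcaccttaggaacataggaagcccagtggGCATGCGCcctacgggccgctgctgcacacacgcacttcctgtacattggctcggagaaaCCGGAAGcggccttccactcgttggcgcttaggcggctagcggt
Ndufc1: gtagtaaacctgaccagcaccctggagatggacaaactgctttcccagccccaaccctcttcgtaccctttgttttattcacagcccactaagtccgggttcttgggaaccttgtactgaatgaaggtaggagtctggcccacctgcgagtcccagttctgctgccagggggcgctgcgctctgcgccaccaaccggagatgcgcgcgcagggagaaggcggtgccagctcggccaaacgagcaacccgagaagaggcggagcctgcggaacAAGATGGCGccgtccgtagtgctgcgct
Ndufa12: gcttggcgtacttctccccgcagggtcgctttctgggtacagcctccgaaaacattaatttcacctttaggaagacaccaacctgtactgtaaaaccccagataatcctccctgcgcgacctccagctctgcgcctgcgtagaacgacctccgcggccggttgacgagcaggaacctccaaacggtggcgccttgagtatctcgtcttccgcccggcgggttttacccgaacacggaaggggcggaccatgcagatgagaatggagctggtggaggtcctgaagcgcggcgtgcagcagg
The Cox5a window (chr9:57520982-57521281, plus strand) and the Ndufa12 window (chr10:94198785-94199084, plus strand) hold none of the 4 strings, and each holds GGGCGG at 2 places. Uqcr11 (chr10:80406772-80407071, minus strand) has the ETS string from 66 bases before the start and the NRF1 string from 4 bases before it. Sdhb (chr4:140961021-140961320, plus strand) has the NRF1 string from 54 bases before the start and the ETS string from base 7 after it. Ndufc1 (chr3:51408906-51409205, minus strand) has the YY1 string from base 23 after the start.

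Complex I takes in electrons at a peripheral arm that stands in the matrix and pumps protons through a membrane arm. All 6 measured core genes of the peripheral arm rose with culture (Ndufv1, Ndufv2, Ndufs1, Ndufs3, Ndufs7 and Ndufs8, median log2 change 0.76, from 0.38 to 1.0), and so did 23 of 25 accessory genes (median 0.68). The lowest of the 6 was Ndufv1, the flavoprotein that accepts electrons from NADH, at 0.38 ± 0.05. The highest was Ndufv2, an iron-sulfur subunit beside it, whose values were 9.07 to 9.66 (median 9.45) on the 8 in vivo arrays and 10.36 to 10.44 (median 10.39) on the 8 cultured arrays. With cyclic loess Ndufv1 (0.08, adjusted p = 0.119) and Ndufs7 (0.10, adjusted p = 0.0940) no longer passed. Ndufs8 rose by 0.83 on the probe set used, while its other probe sets changed by 0.75, 0.35 and -0.67.

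Ndufc1, a small membrane-arm subunit, had the highest change of complex I, 1.16 ± 0.09 (2.23-fold, adjusted p = 4.79e-09, limma). Its values were 10.30, 9.84, 9.43 and 9.76 on young in vivo arrays, 9.91, 9.86, 10.04 and 9.90 on old in vivo arrays, 11.12, 10.98, 10.99 and 11.11 on young cultured arrays and 11.11, 11.04, 11.04 and 10.92 on old cultured arrays. All cultured arrays were higher than all in vivo arrays, and the in vivo values of the 2 ages overlapped. Ndufa10, an accessory subunit, changed by 1.14 ± 0.06, from 8.85 to 9.60 (median 9.21) in vivo to 10.33 to 10.43 (median 10.37) in culture. A second, dim probe set of Ndufa10 changed by only 0.12. Ndufb8, a membrane-arm subunit whose protein is often used as a marker of assembled complex I, changed by 1.01 ± 0.07, from 8.74 to 9.58 (median 9.27) in vivo to 10.17 to 10.29 (median 10.20) in culture. Ndufv3 (0.03 ± 0.07) and Ndufb10 (-0.03 ± 0.07) were the 2 complex I genes that did not pass the threshold, and both were lower under the other scalings. Ndufv3 stood at -0.17 (adjusted p = 0.0339) with 75th percentile scaling and -0.27 with cyclic loess, and Ndufb10 at -0.23 (adjusted p = 0.00836) and -0.34 (adjusted p = 3.64e-04).

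Complex II, or succinate dehydrogenase, is also an enzyme of the citric acid cycle and has no subunit in mitochondrial DNA. Its 2 membrane anchors rose most. Sdhc was at 6.48, 6.05, 6.11 and 6.34 on young and 6.33, 6.21, 6.48 and 7.14 on old in vivo arrays, against 7.91, 7.63, 7.73 and 7.63 on young cultured arrays and 7.68, 7.82, 7.55 and 7.60 on old cultured arrays. Every cultured array was higher, and the change was 1.30 ± 0.11 (2.46-fold, adjusted p = 1.67e-08). Sdhd changed by 1.17 ± 0.09 but was dim, with in vivo means of 4.13 (young) and 4.38 (old) below the control level of 4.42, so its change may be understated. Sdhb, the iron-sulfur subunit, changed by 0.61 ± 0.08, from 8.92 to 9.63 (median 9.21) to 9.76 to 9.96 (median 9.82). Sdha, the flavoprotein that oxidises succinate, had the lowest change of the 4 on the probe set used. It was at 9.73 to 10.11 (median 9.97) in vivo and 10.02 to 10.31 (median 10.13) in culture, with overlap, a change of 0.17 ± 0.06 (adjusted p = 0.0192). Its direction depended on scaling: it was -0.03 (adjusted p = 0.714) with 75th percentile scaling and -0.13 (adjusted p = 0.0393) with cyclic loess. A second Sdha probe set, nearly as bright (mean 9.99 against 10.05), changed by 0.67.

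In complex III all 7 genes rose, and each did so with no overlap between cultured and in vivo arrays. Uqcrfs1, the Rieske iron-sulfur protein that takes the first electron from ubiquinol, had the highest change, 1.52 ± 0.09 (2.86-fold, adjusted p = 1.42e-10). It was at 7.09, 6.82, 6.85 and 7.51 on young in vivo arrays, 7.21, 7.56, 7.37 and 7.60 on old in vivo arrays, 8.89, 8.76, 8.69 and 8.86 on young cultured arrays and 8.64, 8.78, 8.76 and 8.76 on old cultured arrays. The cultured arrays of both ages overlapped, as did the in vivo arrays. The small accessory genes Uqcr10 and Uqcr11 changed by 1.01 ± 0.08 and 0.99 ± 0.09. Uqcr10 was at 8.28 to 9.04 (median 8.72) in vivo and 9.56 to 9.86 (median 9.71) in culture. Uqcr11 was at 8.64 to 9.24 (median 8.90) in vivo and at 9.85 or above (median 9.88) in culture. Uqcrq changed by 1.29 ± 0.09 on its brightest probe set (9.86 to 10.47 in vivo, 11.41 to 11.54 in culture), while 2 dim probe sets of the gene, with means of 4.67 and 4.68, changed by -0.15 and 0.60.

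Complex IV held both the highest and the lowest change of all the members. Its nuclear genes include general forms and forms made mainly in heart, muscle, lung or testis. Of 5 general forms 4 rose (median 0.65), and of 6 tissue forms tested 2 rose and 3 fell (median -0.34). Among 5 subunits with a single form 4 rose and 1 fell (median 0.50). Cox5a, a subunit on the matrix side with a single form, changed by 2.06 ± 0.11 (4.17-fold, adjusted p = 1.96e-11). Its values were 8.73, 8.29, 8.08 and 8.15 on young in vivo arrays, 8.45, 8.64, 9.11 and 9.16 on old in vivo arrays, 10.66, 10.55, 10.70 and 10.67 on young cultured arrays and 10.58, 10.62, 10.64 and 10.66 on old cultured arrays. Each in vivo array was lower than each cultured one, and the gene's other probe sets changed by 1.96 and 1.87. Cox6b1, the general form of subunit 6B, was at 9.96 to 10.51 (median 10.24) in vivo and 11.15 to 11.28 (median 11.21) in culture, a change of 1.0 ± 0.06. A second bright Cox6b1 probe set (mean 10.41 against 10.72) changed by 0.65. Ndufa4 was at 8.94 to 9.81 (median 9.29) in vivo and 9.97 to 10.28 (median 10.14) in culture, a change of 0.82 ± 0.10.

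The 4 genes that fell were all of complex IV, and each kept its direction under each scaling. Cox6c, a single-form subunit, lay far above the control level, while the other 3 lay between 5.21 and 6.85, nearer to it. Cox6c was at 11.30, 11.37, 10.96 and 11.15 on young in vivo arrays, 11.26, 11.15, 11.28 and 10.94 on old in vivo arrays, 10.74, 10.86, 10.81 and 10.78 on young cultured arrays and 10.79, 10.84, 10.78 and 10.78 on old cultured arrays. Each cultured array was lower than each in vivo array, a change of -0.38 ± 0.07 (adjusted p = 7.56e-05), and the gene's second probe set changed by -0.17. Cox6b2, the testis form of subunit 6B, was at 5.84 to 6.85 (median 6.29) in vivo and 5.33 to 5.68 (median 5.57) in culture (-0.79 ± 0.09). Cox8b, the heart, muscle and brown fat form of subunit 8, was at 5.96 to 6.58 (median 6.36) in vivo and 5.46 to 5.99 (median 5.75) in culture, with overlap (-0.56 ± 0.09). Cox8c, the testis form of subunit 8, was at 5.55 to 6.05 (median 5.73) in vivo and 5.21 to 5.44 (median 5.31) in culture (-0.45 ± 0.08). Cox8a, the general form of subunit 8, did not pass the threshold (-0.02 ± 0.07), and neither did Cox6a2, the heart and muscle form of subunit 6A (-0.22 ± 0.10, adjusted p = 0.0632). Both were lower under the other scalings. Cox8a stood at -0.22 (adjusted p = 0.00694) with the 75th percentile and -0.33 (adjusted p = 4.10e-04) with cyclic loess, and Cox6a2 at -0.42 (adjusted p = 0.00445) and -0.30 (adjusted p = 0.0292).

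**Figure D3:**
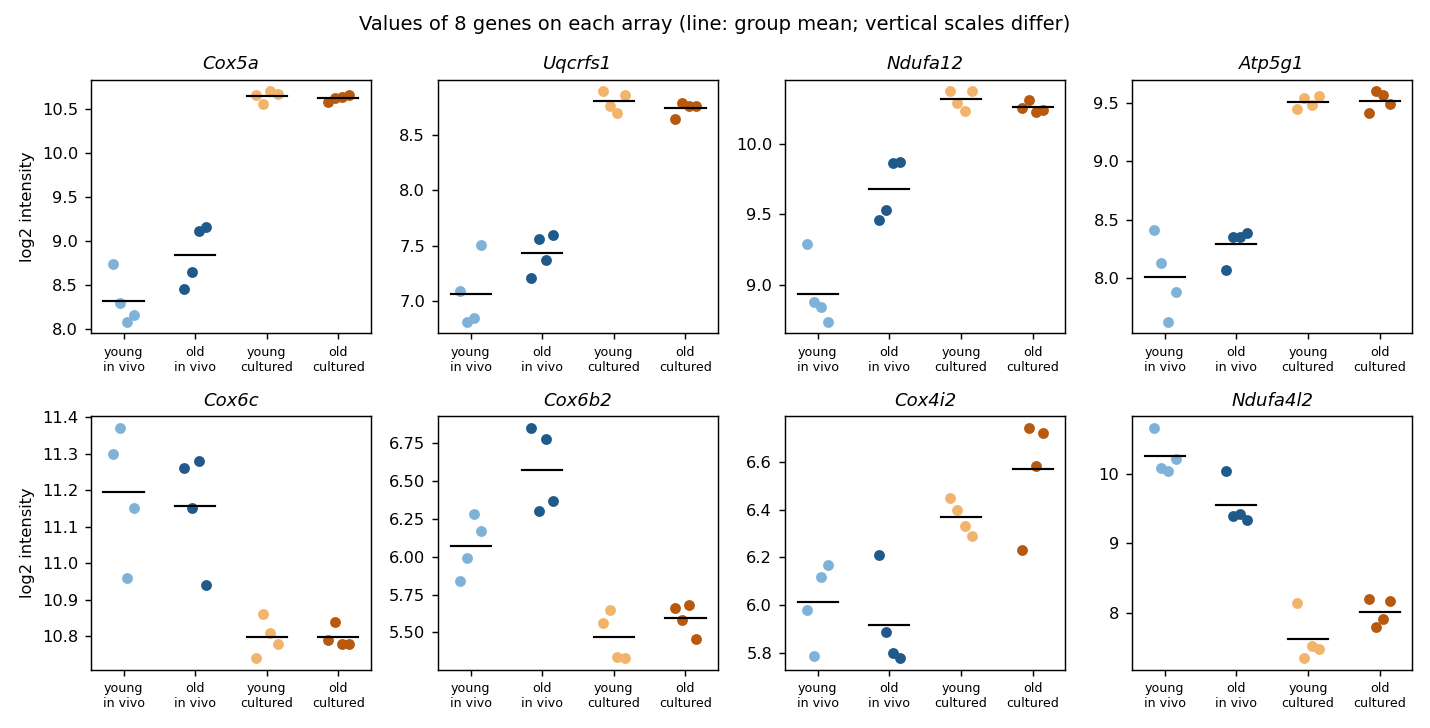
Log2 intensity of 8 genes on each array (dots) with group means (lines), 4 arrays per group and a separate vertical scale for each gene. Cox5a, Uqcrfs1, Ndufa12, Atp5g1 and Cox4i2 are higher and Cox6c, Cox6b2 and Ndufa4l2 lower in the cultured arrays, and Ndufa12 is the only one of the 8 that passed the threshold for age in vivo.

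ATP synthase is a rotary enzyme whose F1 head makes ATP, driven by a ring of c subunits in the membrane. Of its 17 genes 16 rose with culture. The 5 genes of the head and central stalk rose (median 0.34), led by Atp5b, the catalytic beta subunit, which was at 9.53 to 9.96 (median 9.76) in vivo and 10.54 to 10.74 (median 10.58) in culture (0.85 ± 0.07). Of these 5, Atp5b alone passed under both other scalings. Atp5d and Atp5e did not pass with 75th percentile scaling (0.11 in both), and with cyclic loess Atp5a1 (0.05), Atp5c1 (0.04), Atp5d and Atp5e (0 to 2 decimals in both) did not. The 5 genes of the membrane part rose (median 0.50), led by Atp5md, a small membrane subunit, at 10.28 to 10.68 (median 10.43) in vivo and 11.16 to 11.31 (median 11.21) in culture (0.76 ± 0.06). In the peripheral stalk 3 of 4 genes rose. Atp5pb (subunit b) led them at 0.74 ± 0.08, from 7.81 to 8.59 (median 8.35) to 9.01 to 9.14 (median 9.05), and Atp5h (subunit d) did not pass (0.03 ± 0.05). Atp5h was lower with 75th percentile scaling (-0.17, adjusted p = 0.00501) and with cyclic loess (-0.27).

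The c ring is made from a single mature protein that 3 genes encode, and all 3 rose. Atp5g1 changed most, by 1.36 ± 0.09 (2.57-fold, adjusted p = 5.34e-10). It was at 8.41, 8.13, 7.63 and 7.88 on young in vivo arrays, 8.07, 8.35, 8.35 and 8.39 on old in vivo arrays, 9.45, 9.54, 9.48 and 9.56 on young cultured arrays and 9.41, 9.60, 9.57 and 9.49 on old cultured arrays. Atp5g2 changed by 0.59 ± 0.06 and Atp5g3 by 0.68 ± 0.06. In the 3 genes every cultured array was higher than every in vivo array.

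Differences between 2 genes of one subunit, or between a subunit gene and a relative, were compared within each array. Such a difference is free of an offset between arrays. Scaling that depends on intensity can still move it, and the pairs were not rerun with cyclic loess. Of 10 pairs, 8 shifted with culture (exact permutation test, two-sided, 8 against 8 arrays, Benjamini-Hochberg adjusted over the 10 pairs). Atp5g1 gained on Atp5g2 by 0.77 and on Atp5g3 by 0.69, each with no overlap between conditions (adjusted p = 2.59e-04 in both exact tests, from p = 1.55e-04, the smallest that 12870 labelings can give). Atp5g2 and Atp5g3 did not shift apart beyond their spread (-0.09, adjusted p = 0.288, exact test).

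In complex IV the tissue form lost ground to its general form in 3 of 5 pairs. Cox6b2 minus Cox6b1 went from -3.90 ± 0.33 (SD, n = 8) in vivo to -5.68 ± 0.16 in culture, a shift of -1.79. Cox6a2 minus Cox6a1 shifted by -0.87, although Cox6a2 alone had not passed the threshold, and Cox6a1 rose by 0.65 ± 0.06. A second Cox6a1 probe set (mean 11.26 against 11.30) changed by only 0.38. The sizes of both shifts thus depend on the probe set of the general form, and the pairs were not rerun with the second ones. Cox7a2l, a relative of Cox7a2 classed here as a factor that joins complexes III and IV, lost 0.52 against Cox7a2 (a shift of -0.52). That joining was not measured in these cells. These 3 pairs did not overlap between conditions and had the same adjusted p of 2.59e-04 (exact test). Cox8b minus Cox8a shifted by -0.55 (adjusted p = 0.00244, exact test), with overlap. Cox7a1, the heart and muscle form of subunit 7A, and Cox7a2 did not shift apart beyond their spread (-0.27, adjusted p = 0.120, exact test).

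Cox4i2, the form of subunit 4 known from lung and from low oxygen, went the other way. It was at 5.98, 5.79, 6.12 and 6.17 on young in vivo arrays, 6.21, 5.89, 5.80 and 5.78 on old in vivo arrays, 6.45, 6.40, 6.33 and 6.29 on young cultured arrays and 6.23, 6.74, 6.58 and 6.72 on old cultured arrays. All cultured arrays were higher, and the gene changed by 0.50 ± 0.09 (adjusted p = 6.72e-05, limma). Its general form Cox4i1 changed by 0.23 ± 0.05, a call that was lost with 75th percentile scaling (0.04) and with cyclic loess (-0.07). Cox4i2 gained 0.27 on Cox4i1 (adjusted p = 0.0198, exact test), with overlap.

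The largest shift was that of Ndufa4l2 against Ndufa4. Ndufa4l2, a relative of Ndufa4 known to be induced in low oxygen, is not matched by the symbol rule. It was at 10.66, 10.08, 10.04 and 10.22 on young in vivo arrays, 10.04, 9.40, 9.42 and 9.33 on old in vivo arrays, 8.15, 7.35, 7.53 and 7.48 on young cultured arrays and 8.20, 7.80, 7.91 and 8.17 on old cultured arrays. It fell with culture by 2.08 on the log2 scale (SE 0.13, adjusted p = 3.39e-10, limma) while Ndufa4 rose, and the difference between them shifted by -2.89 with no overlap (adjusted p = 2.59e-04, exact test).

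**Figure D4:**
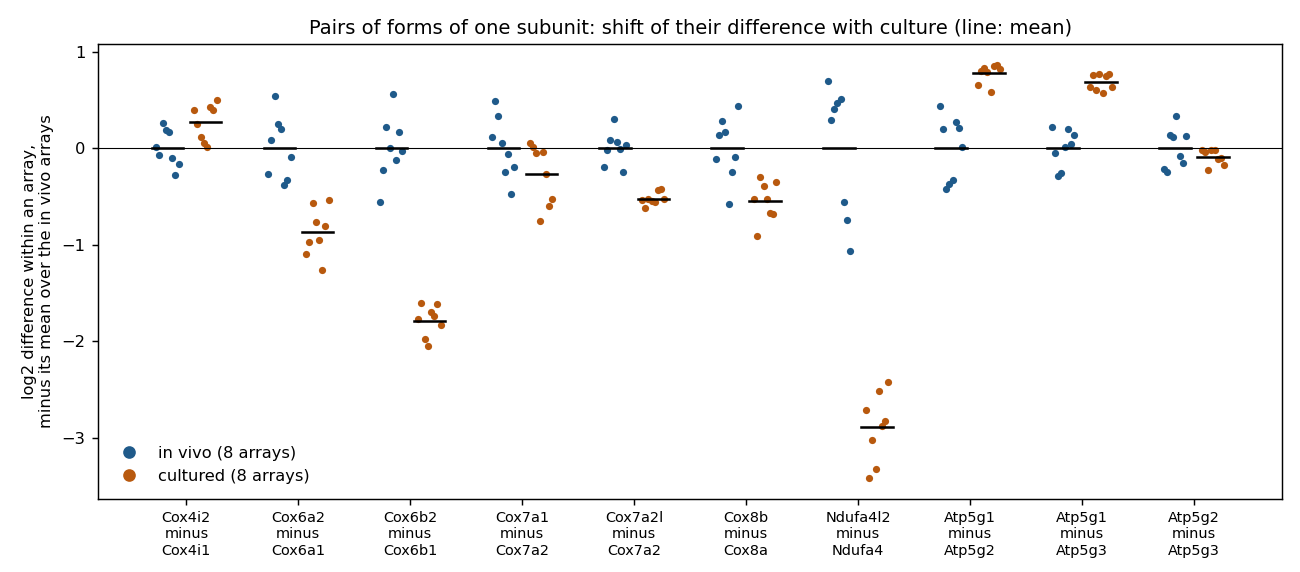
Within-array log2 difference between 2 genes of one subunit, or a subunit gene and a relative, for 10 pairs. The pair's mean over the 8 in vivo arrays was subtracted, dots are arrays and lines are means. Ndufa4l2 against Ndufa4 (-2.89) and Cox6b2 against Cox6b1 (-1.79) shift furthest, and Atp5g1 gains on both of its partners.

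The shift with culture was present at both ages. In young cells 62 of the 76 genes rose and 4 fell, against 32.6% and 38.6% of all genes tested, with a median of 0.69. In old cells 63 rose and 4 fell, against 30.2% and 32.5%, with a median of 0.53. In both ages 59 genes rose and the same 4 of complex IV fell. Ndufa1, Ndufa6 and Atp5c1 passed in young cells only, and Sdha, Cox7a1, Cox7a2l and Atp5e in old cells only, which by itself does not show that the ages differ. The median change by complex was 0.82 in young and 0.57 in old cells for complex I, 1.05 and 0.73 for complex II, 1.01 and 0.86 for complex III, 0.29 and 0.45 for complex IV and 0.56 and 0.49 for complex V.

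In vivo, 1 of the 76 genes differed with age: Ndufa12, an accessory subunit of complex I, was higher in old mice. Its values were 9.29, 8.88, 8.84 and 8.74 in young and 9.46, 9.53, 9.86 and 9.87 in old in vivo arrays, with no overlap. The difference was 0.74 ± 0.15 (1.67-fold, adjusted p = 0.0436, limma on the 8 in vivo arrays). The count was 2 with array weights and 9 with a spread shared by all 16 arrays. It passed narrowly: leaving out any 1 of 6 of the 8 arrays raised the adjusted p to between 0.0833 and 0.118, with differences of 0.68 to 0.79. The call held without young in vivo replicate 1 and without old in vivo replicate 1. The probe set used carries a suffix for probes shared with related transcripts. A second bright probe set, with the same limit, differed by 0.65, and the mean of the gene's probe sets by 0.49 (adjusted p = 0.0806). That mean includes a dim probe set (mean 3.72) that differed by 0.07 and did not pass the filter on low values.

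As a group the genes leaned towards higher values in old mice, although only Ndufa12 passed on its own in the main fit. That is 1.32% of the members, near the 0.911% of all genes tested called higher with age in vivo. Of all genes tested 0.439% were called lower. The sign was positive in 65 of 76 members, against 7858 of 14819 genes tested, and the median difference was 0.18 against 0.01. By complex the median was 0.24 for complex I (positive in 30 of 31), 0.26 for complex II, 0.25 for complex III, 0.06 for complex IV and 0.15 for complex V. With 75th percentile scaling and with cyclic loess the sign was positive in 58 and 56 members, with medians of 0.11 and 0.09. Leaving out single arrays gave medians of 0.17 to 0.32 for complex I, and the complex IV median was -0.01 without old in vivo replicate 3. The members share arrays, so this agreement in sign is not 76 separate observations. In 7 genes all old arrays lay above all young arrays (Ndufv1, Ndufv2, Ndufs7, Ndufa10, Ndufa12, Ndufb4 and Cox6b2), which held for 5.80% of all genes tested. In Cox7a1 all old arrays lay below, which held for 2.73%.

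The 2 members next to the threshold were of complex I. Ndufa10 was at 9.0, 8.94, 8.85 and 9.17 in young and 9.26, 9.46, 9.60 and 9.59 in old in vivo arrays (0.49 ± 0.11, adjusted p = 0.0692, limma). Ndufb4, a membrane-arm subunit, was at 8.47, 8.19, 8.06 and 8.29 in young and 8.55, 8.60, 8.84 and 8.89 in old in vivo arrays (0.47 ± 0.12, adjusted p = 0.0968). Cox7a1, of complex IV, had the lowest difference. It was at 5.34, 5.54, 5.22 and 5.0 in young and 4.82, 4.97, 4.81 and 4.76 in old in vivo arrays (-0.43 ± 0.12, adjusted p = 0.119). None of the 3 passed.

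The median of the 76 genes on each array was 9.31, 9.02, 8.86 and 9.03 in young in vivo and 9.17, 9.35, 9.48 and 9.49 on old in vivo arrays, and the ages overlapped through the first young and the first old array. Markers of other cells also varied among these arrays, and their part in the age difference was not tested. The mean of 9 keratinocyte markers was 5.05 to 5.35 in young and 5.10 to 6.34 in old in vivo arrays, with Krt1 and Cdh1 below the control level in all groups. The mean of 8 endothelial markers was 4.88 to 5.03 in young and 4.94 to 5.35 in old in vivo arrays. None of these 17 genes passed the threshold for age in vivo. Of the other markers 3 did: Kcnj8, of the pericyte list, was higher in old mice (mean 8.23 against 7.17), and Csf1r, of the macrophage list (6.46 against 7.53), and the collagen gene Col1a2, of the fibroblast list (8.11 against 8.75), were lower. The 3′ minus 5′ difference of Gapdh was -0.12 to -0.04 in young and -0.17 to -0.13 in old in vivo arrays, without overlap.

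**Figure D5:**
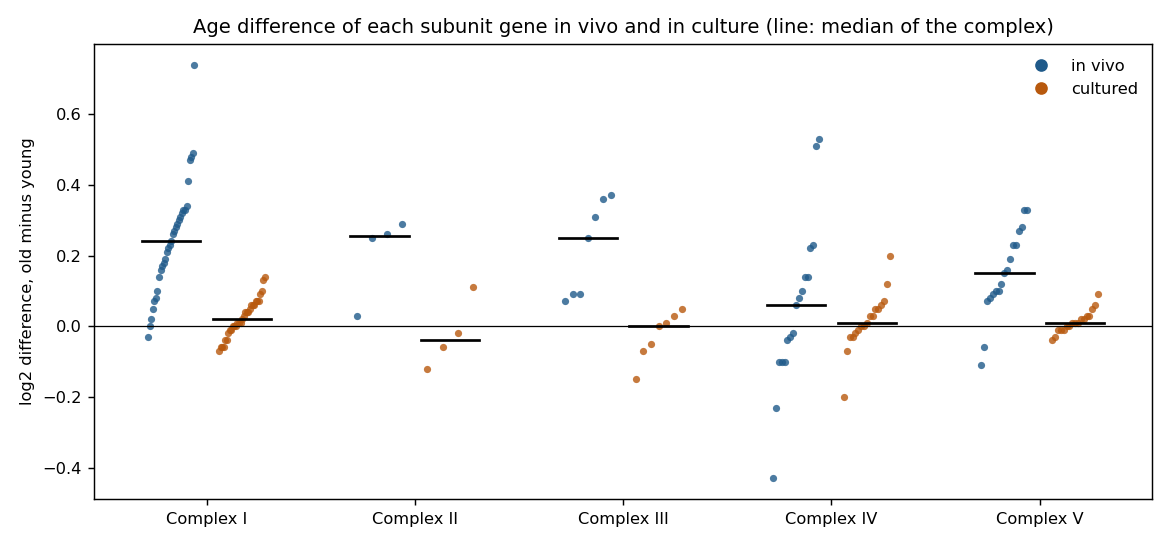
Log2 difference between old and young arrays for each of the 76 genes, in vivo (blue) and in culture (orange), by complex, with the complex's median as a line. In vivo the differences run from -0.43 to 0.74 and mostly lie above 0, and in culture they run from -0.20 to 0.20 around 0.

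In culture no member passed the threshold for age (limma on the 8 cultured arrays; 1 gene, Ndufv1, had an unadjusted p under 0.05), and 0% of all genes tested were called in either direction. Ndufv1 was at 10.69, 10.70, 10.66 and 10.71 on young and 10.82, 10.86, 10.85 and 10.74 on old cultured arrays (0.13 ± 0.06, adjusted p = 0.997). It was the 1 member whose old cultured arrays all lay above the young ones, which held for 1.19% of all genes tested, and none lay all below, which held for 0.864%. The median difference was 0.01, and the 76 genes lay between -0.20 and 0.20. Cultured arrays were tighter than in vivo arrays: the median residual SD of the members was 0.0656 in culture and 0.175 in vivo. Ndufa12 was at 10.37, 10.29, 10.23 and 10.37 on young cultured arrays and 10.25, 10.31, 10.22 and 10.24 on old cultured arrays, a difference of -0.06 ± 0.06.

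Whether the age difference itself changed with culture was tested by the interaction, the age difference in culture minus that in vivo, in a fit of all 16 arrays. Ndufa12 passed, at -0.80 ± 0.16 (adjusted p = 0.0356, limma), and no other member did. Of all genes tested 0.391% were called lower and 0.196% higher in this test. In the same terms, Ndufa12 rose with culture by 1.38 ± 0.12 in young and 0.57 ± 0.12 in old cells. Leaving out 1 array ended the Ndufa12 call for 12 of the 16 arrays, with adjusted p of 0.0633 to 0.0892. It held without young in vivo replicate 1, old in vivo replicate 1 or 2, or young cultured replicate 3. The interaction was negative, meaning that the signed culture change was higher in young than in old cells, in 62 of the 76 genes and in 7822 of the 14819 tested. By complex it was negative in 28 of 31 in complex I, 3 of 4 in complex II, 7 of 7 in complex III, 9 of 17 in complex IV and 15 of 17 in complex V. It was positive in the other 14 genes, and in 26 with 75th percentile scaling and 27 with cyclic loess. The median age difference was 0.01 in culture and 0.18 in vivo, and the in vivo arrays are those of the age comparison above. These signs are therefore not an observation separate from the age signs in vivo, and the members share arrays.

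Other genes of the pathway moved with culture as follows, and none of them passed for age or for the interaction. The counts of each list stand against 34.8% of all genes tested that rose and 44.7% that fell (median -0.11). Of 11 further genes of the respiratory chain 7 rose and 2 fell (median 1.01). Cyc1, the cytochrome c1 of complex III, rose by 1.2 ± 0.07, and Cycs, cytochrome c, by 1.22 ± 0.07. Ndufab1, the acyl carrier protein that is part of complex I, rose by 1.92 ± 0.11, from means of 6.62 (young) and 7.16 (old) in vivo to 8.86 and 8.77 in culture. Gpd2, the glycerol-3-phosphate dehydrogenase that feeds electrons to ubiquinone, rose most, by 2.54 ± 0.13, from means of 6.23 and 6.71 to 9.08 and 8.93. Sqor, which feeds electrons from sulfide to ubiquinone, fell by 1.83 on the log2 scale (SE 0.08).

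Of 44 assembly factors, which build the complexes without staying in them, 32 rose and 5 fell (median 0.69). Ndufaf4, a complex I factor, rose by 2.84 ± 0.17, and Tmem70, a factor for ATP synthase, by 1.90 ± 0.08. Ndufaf3, another complex I factor, fell by 1.03 on the log2 scale (SE 0.17), and Surf1, a complex IV factor, by 0.66 (SE 0.06). Of 10 genes of coenzyme Q synthesis 7 rose, led by Coq7 (1.80 ± 0.09) and Pdss2 (0.89 ± 0.09), and Coq8b (-0.71 ± 0.07) and Coq10a (-0.52 ± 0.10) fell. The calls of Coq4 (-0.01), Coq6 (0.12) and Coq9 (0.16) were lost with 75th percentile scaling, and those of Coq2 (0.15) and Coq9 (0.14) with cyclic loess. Coq8a was lower under both (-0.30 and -0.41). Of 17 genes of the citric acid cycle and pyruvate dehydrogenase 13 rose and none fell (median 0.90), led by Dlat (2.12 ± 0.07), a pyruvate dehydrogenase subunit, and Suclg1 (1.37 ± 0.11), of succinyl-CoA ligase. With cyclic loess Idh3g of this list was lower (-0.19, adjusted p = 0.00324).

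Of 9 genes in a list of ADP/ATP and phosphate carriers, porins, uncoupling proteins and a creatine kinase, 6 rose and 3 fell. The 6 were the carriers and porins, which move ADP, ATP and phosphate across the mitochondrial membranes. The call of Slc25a3, the phosphate carrier, was lost with cyclic loess (0.08, adjusted p = 0.126). Vdac2, a porin of the outer membrane, rose by 1.28 ± 0.06, and Slc25a5, an ADP/ATP carrier, by 0.99 ± 0.06. Ucp3 (-0.44 ± 0.08) and Ucp1 (-0.30 ± 0.08), uncoupling proteins of muscle and brown fat, were the lowest, and the Ucp1 call was lost with cyclic loess (-0.12, adjusted p = 0.141). The other gene that fell was Ckmt1, a mitochondrial creatine kinase (-0.27), a call also lost with cyclic loess (-0.08, adjusted p = 0.395). Of 16 regulators of mitochondrial biogenesis 8 rose and 2 fell, a balance that depended on scaling. With 75th percentile scaling Ppargc1b (-0.19, adjusted p = 0.0345), Pprc1 (-0.23, adjusted p = 0.0242) and Twnk (-0.29, adjusted p = 0.00158) were lower too. With cyclic loess Pprc1 (-0.24, adjusted p = 0.0147), Twnk (-0.16, adjusted p = 0.0348) and Polg (-0.21, adjusted p = 0.00543) were lower. Polrmt, the mitochondrial RNA polymerase, rose by 1.25 ± 0.10, and Gabpb1, a partner of GABPA, by 1.24 ± 0.11. Polg2, a subunit of the mitochondrial DNA polymerase, fell by 2.89 on the log2 scale (SE 0.23), and Yy1 by 0.97 (SE 0.08). Of the other factors whose strings were searched above, picked for that after their values were seen, Gabpa (0.34 ± 0.08) and Esrra (0.39 ± 0.14) rose. Both calls were lost with 75th percentile scaling (0.14, adjusted p = 0.105, and 0.19, adjusted p = 0.198). Both held with cyclic loess (0.45, adjusted p = 4.98e-05, and 0.42, adjusted p = 0.0132). Nrf1 did not pass (0.04 ± 0.06) but was lower with 75th percentile scaling (-0.16, adjusted p = 0.0383). With cyclic loess it did not pass (-0.14, adjusted p = 0.0673).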

How the data were processed

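The deposited table of the series holds log2 intensities of 45141 probe sets on 16 arrays, made by the authors with RMA and affy, per the submitters' processing notes, with no version given. The log base is unstated and was judged from the values' range. RMA equalises arrays, so changes are relative to other genes, and it narrows changes of dim genes. Gene symbols came from the platform annotation of the array: 28898 probe sets had 1 symbol, 551 several and 15692 none, and only the first kind was used. The probe set with the highest mean stood for a gene, and testing required at least 4 of 16 arrays above 3.87, the 25th percentile of all values (14819 genes).

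The 4 groups were compared with limma 3.58.1 in R 4.3.3 (lmFit, then eBayes), two-sided, with Benjamini-Hochberg adjustment over all genes tested and a threshold of 0.05. Culture contrasts and the interaction used all 16 arrays. Each age comparison used only the 8 arrays of its condition, because the residual SD of all genes was 0.185 in vivo and 0.129 in culture. Errors after ± are the fit's standard errors except where marked SD. Which samples came from the same mouse or day is not labelled, so no block was fitted, and the p-values treat in vivo and cultured samples of a mouse as independent. The number of arrays limits the precision. The steps were tested on simulated data. Members and lists were chosen with earlier results of these data known. Values by array were given for the 4 genes of each complex with the highest absolute culture change past the threshold, genes past it for age or interaction, genes that fell against their complex, and the pairs. In other lists the 2 highest and 2 lowest past the threshold were named. Alternatives were other scalings, filters, probe set rules, array weights, a spread per condition and leaving out each array. The NRF1 letters were shortened to an 8-letter core, and Ndufa4 was moved to complex IV, after the data were seen. Promoters are from RefSeq, and protein sequences are not used here.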

Additional observations from a re-analysis of the deposited data

Results flagged for a closer look

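Within 4 groups of 4 arrays, 18 of 304 combinations of gene and group (5.92%) held an array whose gap to its nearest neighbour relative to the group's range exceeded Dixon's 95% critical value, which chance alone passes in about 1 in 20 groups. For genes named above, the lone arrays among old cultured samples were replicate 2 for Ndufv2 (10.37), Sdhb (9.96) and Cox6c (10.84), replicate 1 for Uqcrfs1 (8.64) and Atp5d (10.51), and replicate 3 for Uqcr11 (10) and Ndufb4 (9.30). In old in vivo, replicate 1 stood low for Uqcrq (9.87) and Atp5g1 (8.07). In young cultured, replicate 4 stood low for Cox7a1 (5.06) and high for Cox7a2 (11.74). Replicate 1 stood high for Atp5h in young in vivo (11.18) and in young cultured (11.20). The group ranges of these cultured values were between 0.06 and 0.20 except for Cox7a1, whose range was 0.73.

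The age difference of Ndufa12 was lower in culture than in vivo by an interaction term of -0.80 (adjusted p = 0.0356, limma), which ended when any of 12 arrays was left out.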

How the results depend on the processing

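No paired analysis was possible because the samples of a mouse cannot be matched from the labels. The median culture changes of complexes I to V were 0.49, 0.69, 0.79, 0.21 and 0.33 with each array scaled to its 75th percentile and 0.38, 0.70, 0.68, 0.12 and 0.22 with cyclic loess. With the mean over a gene's probe sets the medians were 0.79 for complex III and 0.23 for complex IV, and without probe sets of suffix _s_at or _x_at 0.79 for complex III. Sdha reversed, to -0.03 with the 75th percentile and -0.13 with cyclic loess. Of 36 members with over 1 probe set past the filter, 6 had probe sets that differed in the sign of the culture change. These were Cox5b, Cox8a, Ndufa11, Ndufs4, Ndufs8 and Uqcrq. The count of members that differed with age in vivo was 0 with no filter, with the mean over probe sets and without _s_at or _x_at probe sets, 2 with array weights and 9 with a spread shared by all 16 arrays. It was 0 to 2 when single arrays were left out (0 without any of 6 arrays, 2 without old in vivo replicate 1). The interaction count was 0 with the mean over probe sets and without _s_at or _x_at probe sets, 2 with array weights and 0 to 2 when single arrays were left out (0 without any of 12, 2 without old in vivo replicate 1). Without _s_at or _x_at probe sets Ndufa12 was not tested, since its remaining probe set (mean 3.72) did not pass the filter on low values. That dim probe set also entered the mean over probe sets. Between the other settings the genes tested, the weights or the arrays differ, and the cause was not tested. The counts for culture were 71 to 72 (both ages), 65 to 69 (young) and 64 to 66 (old) when single arrays were left out. The 10 pairs kept their direction and call when single arrays were left out and without _s_at or _x_at probe sets. They were not rerun with cyclic loess, which acts by intensity. With it the single genes changed by 0.56 (Cox7a1) and 0.40 (Cox7a2), and by -0.58 (Cox8b) and -0.33 (Cox8a). For dim genes such as Sdhd the signal near background limits the measured change.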
